A study of Homo sapiens with 6 samples.

Results

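The human receptor tyrosine kinases are single-pass membrane proteins that bind a growth factor or a cell-surface ligand outside the cell and carry a tyrosine kinase inside it. Ligand binding brings receptors together, the kinases phosphorylate each other, and adaptors docked on the phosphotyrosines start the RAS-ERK and PI3K-AKT cascades. In ovarian carcinoma cells the family is known for ERBB2, MET, AXL and EPHA2, and SKOV3 is widely used as an ERBB2-amplified line. Members were all probe sets (groups of oligonucleotides on the array that report 1 transcript region) annotated to exactly 1 gene out of 53 listed receptors. This gave 165 of 54613 non-control probe sets, for 51 receptors out of 19775 genes that the array reads this way. The list was set by gene family, with earlier results of these data known. EPHB2 had no such probe set and DDR1 had only 4 that name several genes, so neither entered a comparison between the lines. Both are among the receptors whose promoter windows are counted below.

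Total RNA from SKOV3.ip1, a subline of the ovarian cancer line SKOV3, was hybridised to Affymetrix HG-U133 Plus arrays, 6 in all and 3 for each of 2 stably transfected lines. SKOV3.ip1-S116A carried a vector for a PEA-15 whose serine had been replaced by alanine and which cannot be phosphorylated there. SKOV3.ip1-S116D carried a vector for a phosphomimetic PEA-15 with aspartic acid at that residue. For the S116D vector the labels disagree: the title and design text name 1 serine, the sample characteristics name a further one, and the treatment protocol gives the residue another number. PEA-15 is a small protein that binds ERK and FADD under control of its phosphorylation. Both lines were grown in the same medium with fetal bovine serum and penicillin-streptomycin. The labels state neither the promoter of the vectors, nor whether a line was 1 clone or a pool, nor whether the 3 arrays of a line came from separate cultures, so p-values rest on a spread between arrays that may be only technical. Untransfected and empty-vector cells were not analysed here; every difference below is S116D minus S116A, in log2 signal. In RNA from whole cultures, fewer cells with a transcript and less transcript per cell cannot be told apart.

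Array medians lay between 7.86 and 7.89 log2 signal, and arrays correlated at r of 0.995 to 0.998 within a line and 0.987 to 0.990 between lines across probe sets. PEA15 itself was not called on either of its 2 probe sets (differences of -0.06 and -0.19, limma adjusted p = 0.82 and 0.20). Of 12 epithelial ovarian carcinoma markers 10 lay above the median signal, among them PAX8, EPCAM, KRT7, KRT8, KRT18 and KRT19, while MUC16 and MSLN did not. Of these markers 5 were lower in S116D and FOLR1 alone was higher, where 5.39% of all genes were lower and 6.79% higher. Their summed log2 signal was 130.3 to 132.8 in S116A and 125.4 to 127.9 in S116D; its part in the receptor differences was not tested. None of 8 leukocyte markers was called by limma or had an unadjusted p under 0.05 (0 of 8). Among 8 endothelial markers EGFL7 rose by 0.26, and among 9 fibroblast and mural markers ACTA2 fell by 0.34 on the log2 scale. The table holds no zero and no detection call, so no marker could be called absent. The arrays also fell into 2 sets that follow no label, S116A 1, S116A 2 and S116D 1 against S116A 3, S116D 2 and S116D 3, along the component with 20.3% of the variance. The log2 ratio of 3′ to 5′ GAPDH signal, a sign of RNA integrity, was 0.726 to 0.793 in the former and 0.653 to 0.708 in the latter, while that of ACTB overlapped between the sets (2.33 to 2.44 against 2.27 to 2.47). Each set held both lines, and receptor values that moved with the sets are given below within each set.

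Taking for each gene the probe set with the highest mean, 7 of the 51 receptors were lower in S116D and none was higher. The falls were those of EPHA2, an ephrin receptor, AXL, the receptor for GAS6, MET, the receptor for hepatocyte growth factor, IGF1R and INSR, the receptors for insulin-like growth factors and insulin, KDR, a receptor for vascular endothelial growth factors, and ROR1, a receptor of the Wnt ligand WNT5A. All 7 were smaller than 2-fold changes, from 1.22-fold for ROR1 to 1.71-fold for EPHA2. A call means a limma p under 0.05 after Benjamini-Hochberg adjustment over all genes. Over all 19775 genes 12.2% were called, against 13.7% of the receptors, so the share called in either direction was close to that of genes at large. By direction, 13.7% of the receptors were lower against 5.39% of all genes, and none was higher against 6.79%. At an unadjusted limma p under 0.05, 10 of the 51 receptors were lower and 4 higher, against 11.2% and 12.8% of all genes. The median difference of the 51 receptors was 0.01, as it was over all genes. The lines did not overlap for 15 receptors (29.4%), against 27.8% of all genes. On single probe sets, 14 of 165 were called, 12 lower and 2 higher, or 8.48% against 8.55% of all probe sets (4.19% lower and 4.36% higher).

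**Figure D1:**
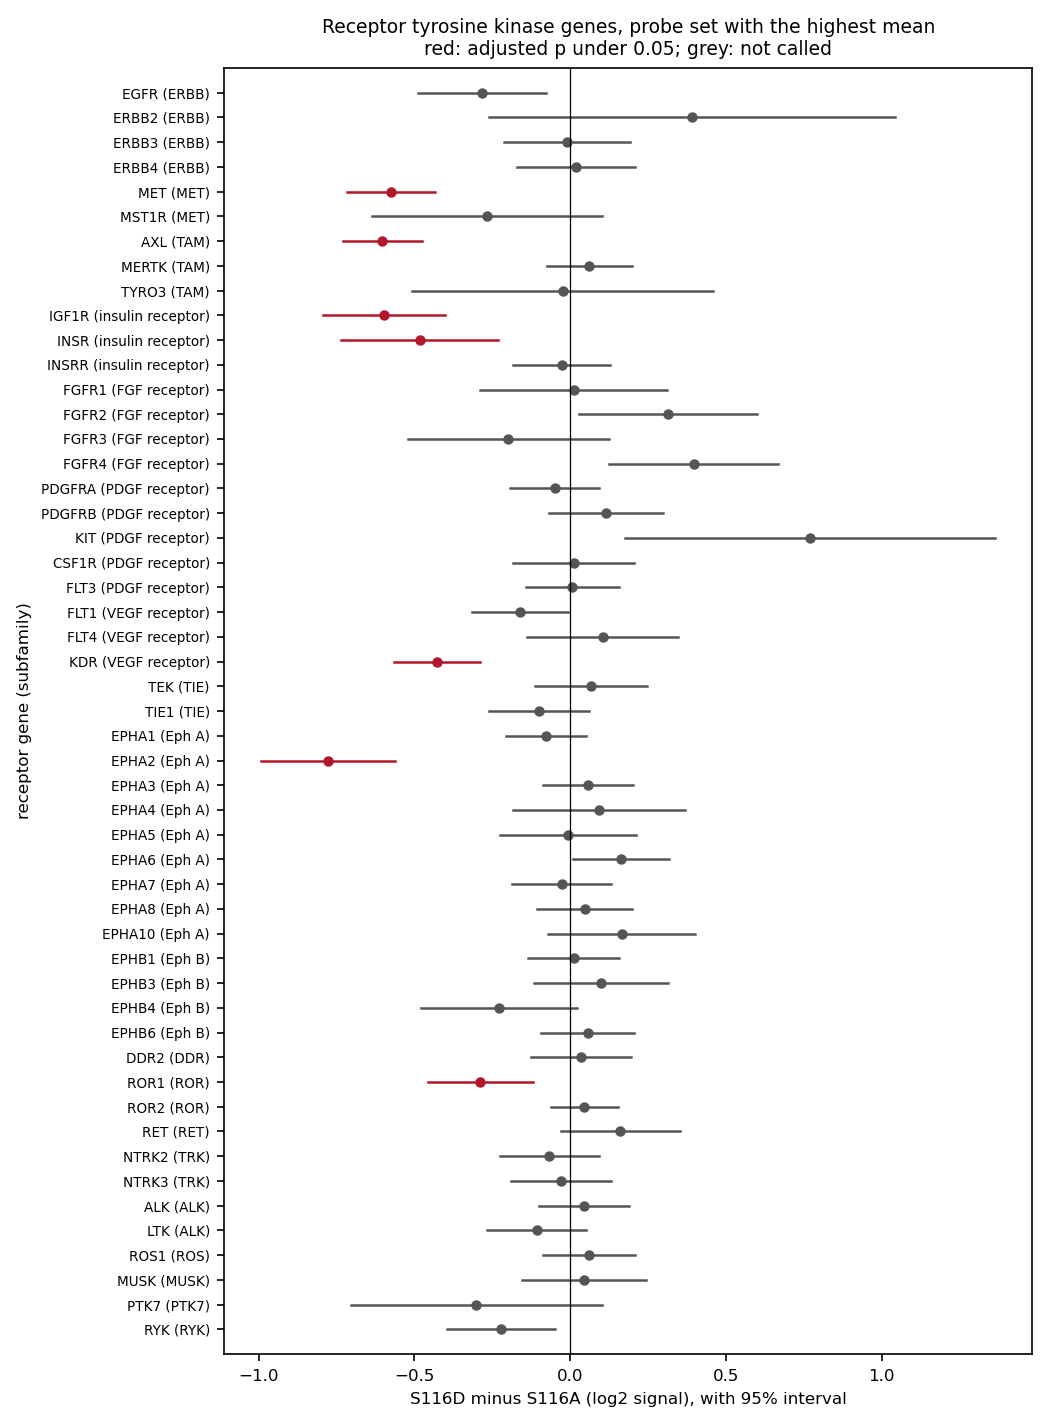
Difference between the lines (S116D minus S116A, log2 signal) for the 51 measured receptor genes on the probe set with the highest mean, with 95% limma intervals; the vertical line marks no difference and red marks an adjusted p under 0.05. The 7 called receptors all lie left of the line, from -0.29 for ROR1 to -0.78 for EPHA2, and the uncalled receptors run from -0.30 for PTK7 to 0.77 for KIT.

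The promoter windows of EPHA2, AXL, MET and RET are printed as examples, chosen by their measured differences. EPHA2, AXL and MET are 3 receptors whose falls over genes held under every alternative run. RET had the largest rise on any probe set. Each window runs 5′ to 3′ on the gene's strand from 250 bases before to 50 bases after the start (RefSeq, GRCh38.p14). Capitals mark matches on either strand to 4 motifs, the GC box GGGCGG, the AP-1 motif TGANTCA, the TEAD motif GGAATG and the ETS core CCGGAA, which can overlap each other at their ends.
EPHA2, chr1:16156020-16156319, minus strand: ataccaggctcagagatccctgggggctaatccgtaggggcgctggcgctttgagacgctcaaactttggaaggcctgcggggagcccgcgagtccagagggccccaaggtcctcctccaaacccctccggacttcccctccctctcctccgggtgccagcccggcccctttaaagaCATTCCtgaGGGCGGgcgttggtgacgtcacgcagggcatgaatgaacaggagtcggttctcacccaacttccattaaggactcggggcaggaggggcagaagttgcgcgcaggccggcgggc
AXL, chr19:41218973-41219272, plus strand: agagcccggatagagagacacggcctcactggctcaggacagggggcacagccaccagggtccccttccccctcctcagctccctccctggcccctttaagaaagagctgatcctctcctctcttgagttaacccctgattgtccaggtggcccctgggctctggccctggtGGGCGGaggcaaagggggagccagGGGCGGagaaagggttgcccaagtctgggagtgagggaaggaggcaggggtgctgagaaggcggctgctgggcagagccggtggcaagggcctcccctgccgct
MET, chr7:116671946-116672245, plus strand: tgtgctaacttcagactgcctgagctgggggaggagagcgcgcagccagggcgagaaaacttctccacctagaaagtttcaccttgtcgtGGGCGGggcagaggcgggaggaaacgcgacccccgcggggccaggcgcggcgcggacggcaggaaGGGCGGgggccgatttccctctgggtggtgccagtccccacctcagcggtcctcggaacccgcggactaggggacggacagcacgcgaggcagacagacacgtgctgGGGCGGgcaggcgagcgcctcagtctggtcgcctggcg
RET, chr10:43076819-43077118, plus strand: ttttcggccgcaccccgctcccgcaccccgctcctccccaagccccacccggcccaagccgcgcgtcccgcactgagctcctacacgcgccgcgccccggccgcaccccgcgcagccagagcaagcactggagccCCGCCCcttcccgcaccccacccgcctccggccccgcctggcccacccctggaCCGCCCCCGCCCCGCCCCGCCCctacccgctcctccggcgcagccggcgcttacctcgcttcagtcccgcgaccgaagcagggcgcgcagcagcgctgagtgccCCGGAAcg

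EPHA2 held 1 GC box and 1 TEAD match, AXL 2 GC boxes, MET 3 GC boxes, and RET 5 GC boxes and 1 ETS match. A GC box was in the windows of 6 of the 7 fallen receptors and of 36 of the 48 receptors that matched the RefSeq table, against 45.0% of all 35116 windows. The receptors' windows were also rich in G and C, with a median of 69.0% for the 48 and for the 7 alike, against 58.7% over all windows. AP-1 matches were in 5 of 48 receptor windows (7.71% of all windows) and in 0 of the 7. TEAD matches were in 3 of 48 (14.0% of all), of which EPHA2 was the only fallen receptor, and ETS matches in 6 of 48 (17.2% of all) and 0 of the 7. Each receptor stood with 1 window, while the 35116 are all full-length windows of the RefSeq table, so these shares may be in unlike units. These matches describe letters in 300 bases and are no binding data.

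EPHA2 showed the largest fall of the family. It binds ephrin-A ligands on neighbouring cells and is among the genes that ERK signalling raises. Its only probe set read 12.28, 12.51 and 12.20 log2 signal on the S116A arrays and 11.53, 11.60 and 11.54 on the S116D arrays. The lines did not overlap, and the S116D arrays were close to each other. The difference was -0.78 ± 0.09 (SE, n = 3 each; 95% interval -0.99 to -0.57; limma adjusted p over all probe sets = 0.0016). The other 12 measured Eph receptors were not called. EPHA4, the brightest of these, differed by 0.09 (95% interval -0.18 to 0.37), and EPHB4, a receptor for ephrin-B2, by -0.23 (-0.48 to 0.02). EPHA6, named after its values were seen, differed by 0.16 with non-overlapping lines at signals under the arrays' lower quartiles (6.62 to 6.65).

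AXL belongs to the TAM receptors, which bind GAS6 and protein S and act in cell survival and invasion. Its brighter probe set read 13.91, 13.89 and 13.83 in S116A and 13.22, 13.26 and 13.34 in S116D, without overlap. It fell by 0.60 ± 0.06 on the log2 scale (SE, n = 3 each; limma adjusted p = 7.4e-04), or 1.52-fold. The second AXL probe set fell too, with a difference of -0.32 (adjusted p = 0.040), a call that ended when any array but S116A 3 was left out (adjusted p 0.053 to 0.17). TYRO3 differed by -0.02 (95% interval -0.51 to 0.46) on its brighter probe set, where S116A 3, S116D 2 and S116D 3 were all lower than the other 3 arrays. MERTK was called on 1 of its 3 probe sets, in the direction opposite to AXL. There it read 6.59, 6.41 and 6.37 in S116A and 6.73, 6.93 and 6.74 in S116D, a difference of 0.34 ± 0.08 (SE, n = 3 each; limma adjusted p = 0.035). These signals lie near the lower quartile, the call was lost without S116A 2, S116A 3, S116D 2 or S116D 3 (adjusted p 0.072 to 0.12), and the other 2 MERTK probe sets each differed by 0.06.

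**Figure D2:**
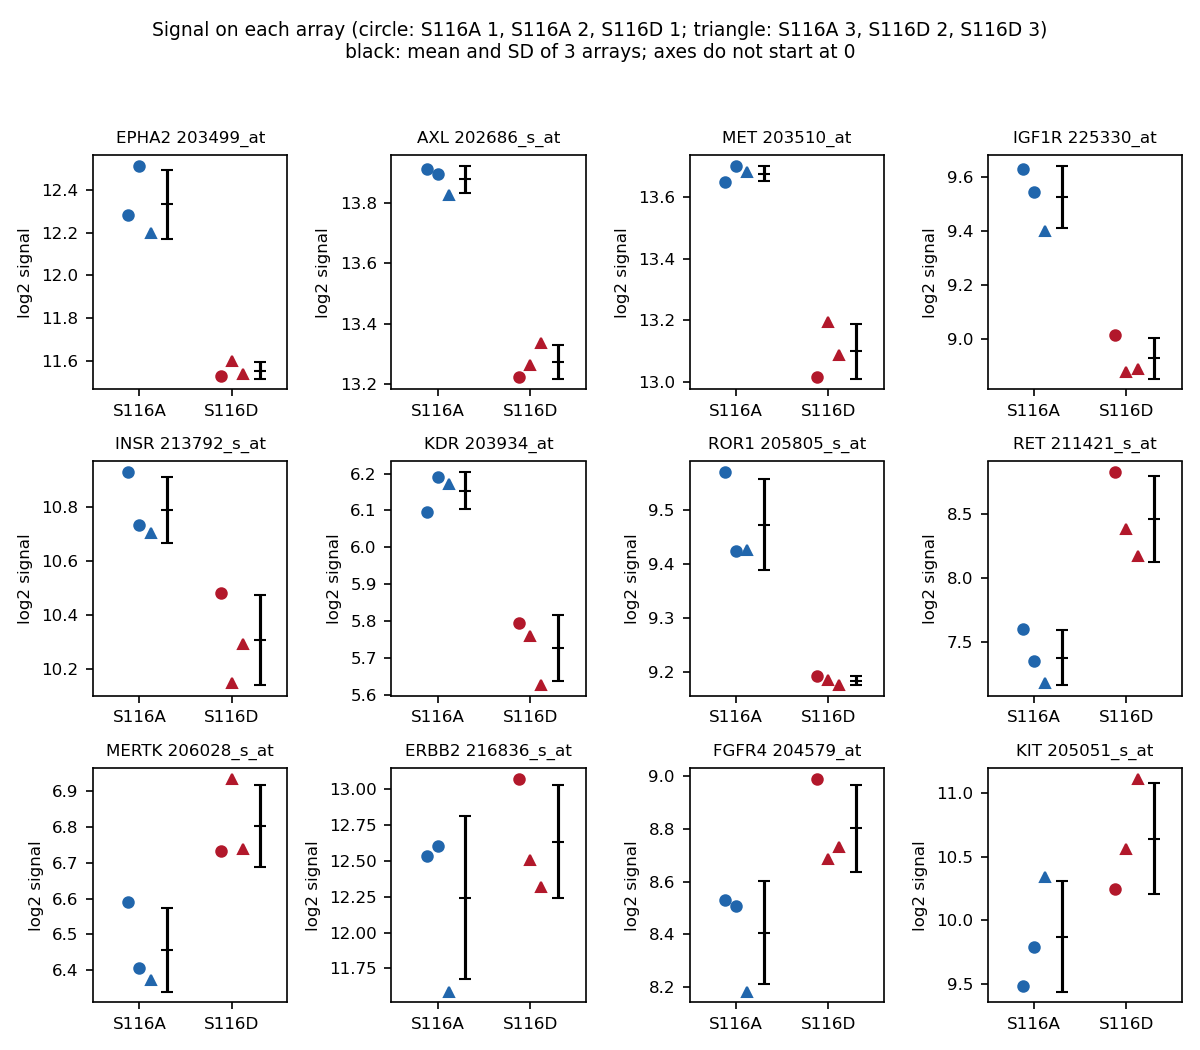
Log2 signal of 12 receptor probe sets on each of the 6 arrays, S116A in blue and S116D in red, with the mean and SD of 3 arrays in black; circles are S116A 1, S116A 2 and S116D 1, triangles the other 3 arrays, and the vertical axes do not start at 0. The lines are apart for EPHA2, AXL, MET, IGF1R, INSR, KDR, ROR1, RET, MERTK and FGFR4, and overlap for ERBB2 and KIT, where triangles and circles differ within a line.

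MET, which drives scattering and invasive growth when hepatocyte growth factor binds, was lower on all 4 of its probe sets. The brightest read 13.65, 13.70 and 13.68 in S116A and 13.02, 13.19 and 13.09 in S116D. The lines were separated by more than the spread within either, and the difference was -0.58 ± 0.07 (SE, n = 3 each; limma adjusted p = 0.0014), or 1.49-fold. The next probe set gave -0.46 (adjusted p = 0.0087), and the third gave -0.35 (adjusted p = 0.028; 0.052 to 0.11 with any 1 array left out). The dimmest gave -0.48 without passing the threshold (adjusted p = 0.052), also without overlap of the lines. MST1R, the receptor for macrophage-stimulating protein and the closest relative of MET, differed by -0.27 (95% interval -0.64 to 0.10, adjusted p over genes = 0.39).

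The insulin receptor subfamily had falls on 1 probe set each of IGF1R and INSR. IGF1R, which signals growth and survival through IRS adaptors, read 9.63, 9.55 and 9.40 in S116A and 9.01, 8.88 and 8.89 in S116D on its brightest probe set. This was a difference of -0.60 ± 0.09 (SE, n = 3 each; limma adjusted p = 0.0041), with the lines apart. The other 4 IGF1R probe sets were not called and ran from -0.39 to 0.09. The median of the gene's 5 probe sets differed by 0.029, opposite in sign to the brightest one (adjusted p over genes = 0.93). INSR read 10.93, 10.73 and 10.71 in S116A and 10.48, 10.15 and 10.29 in S116D. It fell by 0.48 ± 0.11 on the log2 scale (SE, n = 3 each; limma adjusted p = 0.028), a call lost without S116A 1, S116A 2, S116D 2 or S116D 3 (adjusted p 0.073 to 0.11). The other 4 INSR probe sets ran from -0.25 to 0.10, and INSRR, the orphan member, differed by -0.03 (95% interval -0.18 to 0.13).

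Among receptors best known from blood vessels, KDR and TEK gave calls at dim signals. KDR, the main signalling receptor for VEGFA, read 6.10, 6.19 and 6.17 in S116A and 5.79, 5.76 and 5.63 in S116D. That is a difference of -0.43 ± 0.06 (SE, n = 3 each; limma adjusted p = 0.0036), on 1 probe set, dimmer in both lines than the lower quartile of any array. TEK, the angiopoietin receptor, differed by -0.25 (adjusted p = 0.034) on a probe set whose signal was 5.88 to 5.95 in the S116A line and 5.59 to 5.77 in the S116D line. Its brighter probe set, at 10.11 to 10.15 and 10.11 to 10.27, differed by 0.07 (95% interval -0.11 to 0.24). The TEK call was lost when any array but S116D 1 was left out (adjusted p 0.051 to 0.13). FLT1, another VEGF receptor, differed by -0.16 on its brightest probe set (adjusted p over genes = 0.19). Endothelial markers summed to 61.9 to 63.0 in S116A and 62.5 to 63.2 in S116D, overlapping ranges, and signal over background could not be judged for these probe sets.

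ROR1 and RYK are Wnt-binding receptors with weak or absent kinase activity, and both gave falls on 1 of 3 probe sets. The brightest ROR1 probe set read 9.57, 9.42 and 9.43 in S116A and 9.19, 9.19 and 9.18 in S116D. It fell by 0.29 ± 0.08 on the log2 scale (SE, n = 3 each), which passed limma's threshold over genes (adjusted p = 0.040) but not over probe sets (0.053). The call over genes was lost whichever array was left out (adjusted p 0.051 to 0.14). A dimmer ROR1 probe set fell more clearly, from 7.58 ± 0.04 to 7.20 ± 0.10 (SD, n = 3 each; limma adjusted p = 0.011), and the remaining one differed by -0.06. RYK read 10.30, 10.11 and 10.24 in S116A and 9.94, 9.85 and 9.87 in S116D on the called probe set, the dimmest of its 3. This was a difference of -0.33 ± 0.08 (SE, n = 3 each; limma adjusted p = 0.042; 0.050 to 0.16 with any 1 array left out). The brighter RYK probe sets differed by -0.22 and -0.21 without passing. ROR2, at dim signal, differed by 0.05 (95% interval -0.06 to 0.15), and PTK7, a pseudokinase of planar polarity, by -0.30 (-0.70 to 0.10).

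RET, the receptor for GDNF family ligands, gave the largest rise, on 1 of 3 probe sets. It read 7.61, 7.35 and 7.18 in S116A and 8.82, 8.38 and 8.17 in S116D. Every S116D array was above every S116A array, and the difference was 1.08 ± 0.17 (SE, n = 3 each; 95% interval 0.69 to 1.46; limma adjusted p = 0.0058), or 2.11-fold. All 3 RET probe sets, the called one included, are of types whose oligonucleotides can match other transcripts. The 2 that were not called each differed by 0.16 (intervals -0.03 to 0.35 and -0.04 to 0.35). The brighter of these stood for RET in the count over genes, so RET was not among the called genes. Probe positions were not used here, so which RET transcript each probe set reads is not given.

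**Figure D3:**
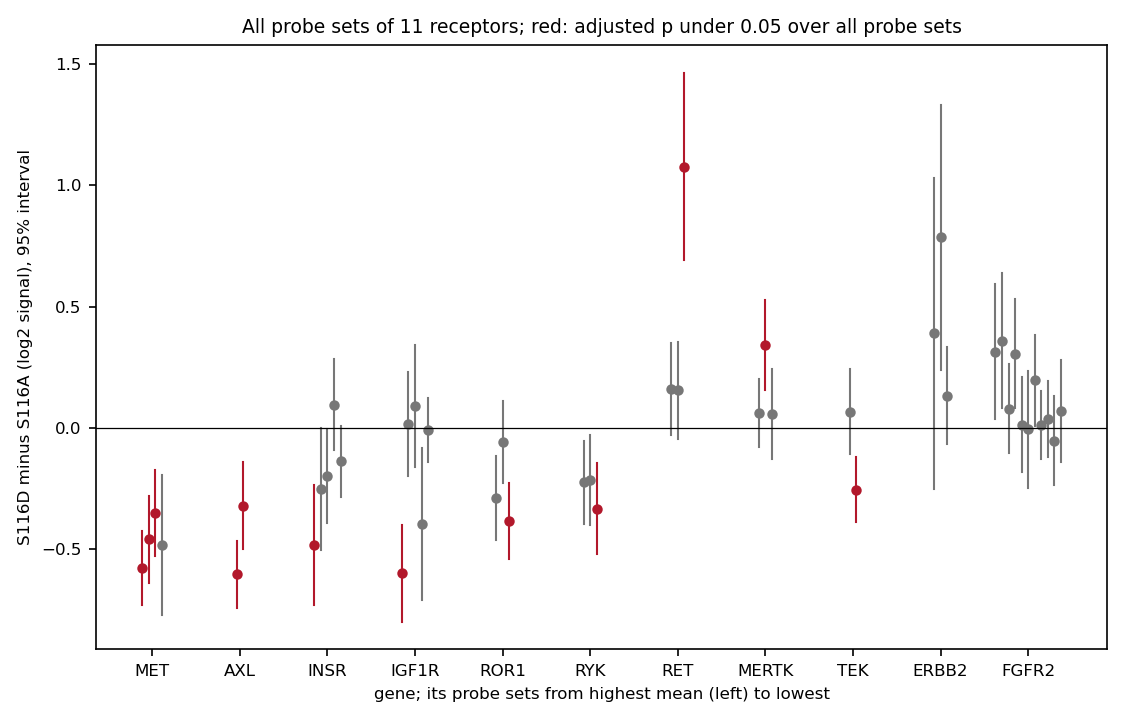
Difference between the lines (S116D minus S116A, log2 signal) with 95% limma intervals for every probe set of 11 receptors, ordered within a gene from the highest to the lowest mean signal; red marks an adjusted p under 0.05 over all probe sets. All probe sets of MET, AXL, ROR1 and RYK lie below 0, those of RET and ERBB2 lie above 0, and IGF1R, INSR and TEK have probe sets on both sides.

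Among the ERBB receptors no call was made between the lines, and ERBB2 varied most within them. ERBB2, the orphan partner of the other ERBB receptors, read 12.53, 12.60 and 11.59 in S116A and 13.07, 12.51 and 12.32 in S116D. The lines overlapped and S116A 3 was lowest, with a difference of 0.39 ± 0.28 (SE, n = 3 each; 95% interval -0.25 to 1.03; limma adjusted p = 0.56). Its second probe set read 8.14, 8.14 and 7.40 against 9.13, 8.48 and 8.43, with no overlap and a difference of 0.79 (adjusted p = 0.090). Within the set of S116A 1, S116A 2 and S116D 1 the brighter ERBB2 probe set was 0.50 higher in S116D, and within the other set 0.82 higher. In each set 1 line is read by 1 array only. With the sets as a block, an alternative chosen after the data were seen, ERBB2 rose by 0.66 ± 0.08 (SE, n = 3 each; limma adjusted p over genes = 1.9e-04). The sets were drawn from these same values, so p-values with the block can be too small. With the block 22.3% of all genes were called, against 12.2% without it. EGFR, named after its values were seen, differed by -0.28 on its brightest probe set (adjusted p over genes = 0.082), without overlap of the lines, and by -0.21 to 0.14 on the other 8. ERBB3, whose kinase is nearly inactive, and ERBB4, a receptor for neuregulins, differed by -0.01 and 0.02 on their brightest probe sets.

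KIT and FGFR4, like ERBB2, were higher in S116D within both sets of arrays and did not pass the threshold without a block. KIT, the stem cell factor receptor, read 9.49, 9.79 and 10.34 in S116A and 10.25, 10.56 and 11.12 in S116D, a difference of 0.77 ± 0.26 (SE, n = 3 each; limma adjusted p = 0.12). The lines overlapped because S116A 3 exceeded S116D 1. KIT was 0.61 higher in S116D within the former set of arrays and 0.50 higher within the latter, and it was called without S116A 3 (1.01, adjusted p over genes = 0.027) or without S116D 1 (0.97, 0.042). FGFR4, chosen after its values were seen, read 8.53, 8.51 and 8.18 against 8.99, 8.68 and 8.73 on its brightest probe set, without overlap, a difference of 0.40 ± 0.12 (SE, n = 3 each; limma adjusted p = 0.088). It was 0.47 and 0.53 higher within the sets. With the block, 18 of the 165 receptor probe sets were lower and 7 higher, against 7.36% and 7.47% of all probe sets. Of the 51 receptor genes 9 were lower and 3 higher, against 10.4% and 11.9% of all genes. The 3 were ERBB2, FGFR4 and KIT, and the 9 were the 7 falls above with EGFR and RYK. FGFR1, the brightest of the other FGF receptors, differed by 0.01 on its brightest probe set (95% interval -0.29 to 0.31). Its second, nearly as bright, differed by -0.45 (adjusted p = 0.14), with the lines overlapping, by -0.32 and -0.29 within the sets, and by -0.305 with the block (limma adjusted p = 0.0087). FGFR2, also chosen after its values were seen, differed by 0.31 (0.03 to 0.60; adjusted p over genes = 0.16) on the brightest of its 11 probe sets, without overlap of the lines.

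**Figure D4:**
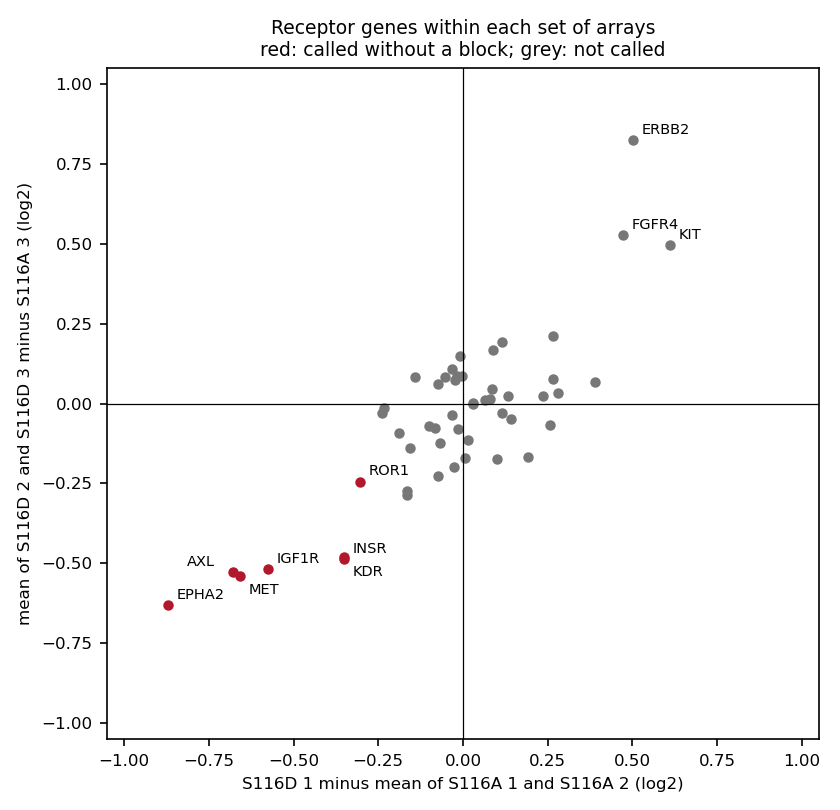
Difference between the lines in log2 signal for 51 receptor genes within each set of arrays, S116D 1 minus the mean of S116A 1 and S116A 2 on the horizontal axis and the mean of S116D 2 and S116D 3 minus S116A 3 on the vertical axis; red marks receptors called without a block. The 7 falls lie at the lower left, from -0.30 and -0.24 for ROR1 to -0.87 and -0.63 for EPHA2, and ERBB2, FGFR4 and KIT lie at the upper right.

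The remaining receptors gave no call on any probe set. These were the receptors for PDGF, CSF1 and FLT3 ligand, FLT4, TIE1, DDR2, the neurotrophin receptors NTRK2 and NTRK3, ALK, LTK, ROS1 and MUSK, beside those already described. DDR2, a collagen receptor, differed by 0.04 (95% interval -0.12 to 0.19), NTRK2 by -0.07 (-0.23 to 0.09), ALK by 0.04 (-0.10 to 0.19), ROS1 by 0.06 and MUSK, which organises the neuromuscular junction, by 0.05. Of the 165 probe sets, 80 lay above the median signal of all probe sets and 85 at or below it.

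Genes that act with the receptors were taken from 11 lists of ligands, coreceptors, adaptors, inhibitors and sheddases, 139 of them measured. The lists were chosen with earlier results of these data known. Of these 18 were lower and 10 higher in S116D, and 111 were not called, where 5.39% of all genes were lower and 6.79% higher. Ligands were split. Of 9 EGF family ligands NRG1 (0.78 ± 0.12, SE) and HBEGF (0.49) rose and TGFA (-0.32) fell, and none of these calls held on the median of the gene's probe sets. Of 22 FGF genes FGF12 alone fell (-0.56; not called on the median of its probe sets), and of 8 ligands of the PDGF receptor subfamily PDGFD alone rose (0.47). VEGFC, the ligand of FLT4 and KDR, fell from 9.55 to 8.12, a difference of -1.43 ± 0.15 (SE; limma adjusted p = 7.6e-04), alone among 7 VEGF and angiopoietin genes. Of 8 ephrins EFNB1 (-0.39) and EFNB2 (-0.52) fell, and EFNB3 (0.93) and EFNA2 (0.50) rose, the last named to complete the count and not called on the median of its probe sets. ARTN, a ligand that acts through RET, fell (-0.33; not called on the median of its probe sets) alone among 5 neurotrophin, GDNF family and ALK ligands. Leaving out S116A 1 ended the calls of TGFA, PDGFD, EFNB1, EFNB2, EFNB3, EFNA2 and ARTN (adjusted p 0.054 to 0.16 over these and the following losses). Leaving out S116A 2 ended those of the same genes but EFNB3, S116A 3 those of TGFA, PDGFD and EFNA2, and S116D 1 that of PDGFD. Leaving out S116D 2 ended the calls of TGFA, PDGFD, EFNB1, EFNB2 and ARTN, and S116D 3 those of TGFA, EFNB1, EFNB2 and EFNA2. None of 6 HGF, TAM and insulin family ligands was called by limma (2 of 6 at an unadjusted p under 0.05); these were PROS1, a ligand of MERTK and TYRO3 (0.71, adjusted p = 0.058), and GAS6, the ligand of AXL (-0.49, adjusted p = 0.063), which differed in opposite directions, each without overlap of the lines.

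Of 24 inhibitors of receptor signalling 6 were lower and 1 higher, beside the 5.39% and 6.79% of all genes. The list was chosen with earlier results of these data known, so these counts cannot show an excess among inhibitors. PTPRR (-3.53 ± 0.15, SE) and DUSP4 (-1.63 ± 0.11), phosphatases of MAP kinases, fell, and SPRED1, an inhibitor of RAS-ERK signalling, alone rose (0.49). The other falls, named to complete the count, were CBLB, a ubiquitin ligase that marks receptors for degradation (-1.10), SPRY1, an ERK feedback inhibitor (-0.44), and the tyrosine phosphatases PTPN1 (-0.54) and PTPRF (-0.46). The fall of PTPN1 was not seen on the median of its probe sets (0.0092), nor that of PTPRF on a probe set of the unshared type (0.012). The list's median was -0.03, against 0.01 over all genes. Of 27 adaptors and effectors PIK3R1, the regulatory subunit of PI3K (0.87 ± 0.12, SE), and IRS1, the docking protein of IGF1R and INSR (0.97 ± 0.15), were the 2 that rose. The IRS1 rise was not called on the median of its probe sets (0.25, adjusted p = 0.15). PTPN11, a phosphatase that passes signals from receptors to RAS, fell (-0.34), as did HRAS (-0.45) and NCK2 (-0.35), named to complete the count. Of 14 coreceptors the neuropilin NRP1 rose (0.85 ± 0.16, SE) and its relative NRP2 fell (-0.71 ± 0.11), both partners of VEGF receptors. CD44, a coreceptor of MET, fell on its brightest probe set (-0.50) and differed by 0.022 on the median of its probe sets. Of 9 receptor sheddases ADAM9 fell (-0.22) and PSEN2 rose (0.34), and ADAM10 and ADAM17, chosen after their values were seen, differed by -0.06 and -0.11. Leaving out any of S116A 1, S116A 2, S116D 2 and S116D 3 ended the calls of SPRY1, PTPN1, PTPRF, NCK2, ADAM9 and PSEN2 (adjusted p 0.050 to 0.17 over these and the following losses). PSEN2 was also lost without S116A 3, ADAM9 without S116D 1, NRP1 without S116A 1 or S116D 2, and HRAS without S116D 2.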

How the data were processed

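Per the submitters' processing notes, MAS5 and RMA were used, without their roles; for background correction, filters and versions, nothing is given in the sources used here. Values in the deposited table were taken as the authors' log2 signals, since they lay between 4.34 and 15.3. Depending on the summary used, which is not known, differences at dim signals can be shrunken. The number of arrays, 3 per line, limits precision. From 54675 probe sets, 62 controls were left out. GEO's platform annotation, updated through RefSeq gene identifiers, named 1 gene for 41091 probe sets and several for 1801; 11721 are unnamed here. The authors' log2 values were compared with limma 3.58.1 (lmFit, eBayes with trend) in R 4.3.3, without covariates, over all probe sets and, with the brightest probe set of each gene, over all genes, with Benjamini-Hochberg adjustment at 0.05. An exact permutation test of 3 against 3 arrays cannot go below 0.1 and was not used. Tested on simulated data over 54613 probe sets, the fit recovered 48.0% of rises of 0.5, 94.0% of rises of 1, 100% of rises of 2 and 84.0% of falls by 1 on the log2 scale, with 4.12% of calls false. The simulation changed 200 probe sets and drew noise independently for each array. The real arrays fell into 2 sets and 8.55% of probe sets were called, so these rates need not hold for them. Members and lists were chosen with earlier results of these data known. The rule for named genes took every receptor with a called probe set, the brightest uncalled one of each subfamily, ERBB2, and up to 3 called genes of each list (1 where none was called). Alternatives were median centring, quantile normalization, leaving out dim probe sets, an eBayes fit with no trend, array weights, a block for the replicate number, other choices of a gene's probe set, leaving out each array, and, added after the data were seen, the 2 array sets as a block. Same-numbered arrays deviated together at r of 0.450, -0.0401 and 0.442, so the numbers were not taken as pairs.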

Additional observations from a re-analysis of the deposited data

How the results depend on the processing

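MET, AXL, KDR and EPHA2 kept their direction and their call under every alternative that could be run for them over genes. Their differences lay between -0.84 and -0.38 on the log2 scale. KDR has no value under the filter on dim probe sets. EPHA2 and KDR have 1 probe set each, so other choices of a gene's probe set could not change their values. INSR and ROR1 lost their calls in 6 and 8 of 15 alternatives. With the median over the probe sets of each gene, IGF1R (0.029), CD44 (0.022) and PTPN1 (0.0092) turned in sign, as did PTPRF (0.012) with unshared probe sets preferred. On the median 4 receptor genes were lower and 1 higher, against 7 and 0. Receptor probe sets called higher, 2 without alternatives, were 1 above the median signal, 4 with array weights, 8 with the replicate number as a block and 7 with the array sets as a block. Receptor genes called higher were 2 with array weights and 3 with either block. Pathway genes called higher, 10 without alternatives, were 16 with the replicate block and 18 with the array sets as a block. With the replicate block receptor probe sets called lower were 17, against 12, receptor genes 9, against 7, and pathway genes 26, against 18; the samples share only a number. With 1 array left out, receptor probe sets called lower were 7 to 11 and higher 1 to 3, receptor genes lower 5 to 7 and higher 0 to 1, and pathway genes lower 8 to 22 and higher 5 to 9; the lowest counts of receptor probe sets came without S116A 1, S116A 2, S116D 2 or S116D 3. The cause was not tested. For these alternatives the share of all genes called is given only with the array sets as a block, 22.3% against 12.2% without it. The other counts cannot be set against genes at large, so their changes are no result about the receptors. Background could not be judged from the table, so differences at dim signals such as those of KDR, TEK and MERTK are not exact.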
